A study of Homo sapiens with 12 samples.

Results

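The genes described here are 33 human genes for chaperones of the endoplasmic reticulum (ER), for ER-associated degradation and for the sensors and transcription factors of the unfolded protein response. They were taken by symbol from a fixed list, and all 33 were found among the 56337 distinct gene IDs of the expression table. Polyadenylated RNA was sequenced from HEK293T cells, a line derived from human embryonic kidney, with the SV40 large T antigen, which is labelled as wild type in every group. There were 4 groups of 3 libraries. FAC+BafA1 cells had 0.1 mg/ml of the iron salt ferric ammonium citrate (FAC) for 24 h and then 10 nM bafilomycin A1 (BafA1) for 24 h, a compound that blocks the proton pump of lysosomes, the V-ATPase. BafA1 cells had the inhibitor at 10 nM without iron, FAC cells had the iron salt at 0.1 mg/ml without the inhibitor, and control cells had neither. The design asks how transcript levels respond when lysosomes cannot be acidified, and whether added iron alters that response. The labels number the replicates without saying whether they were separate cultures, and p-values therefore reflect only the spread among these libraries.

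The ER folds and glycosylates proteins that enter the secretory pathway. When unfolded proteins build up, the chaperone BiP, encoded by HSPA5, leaves the membrane sensors IRE1 (ERN1), PERK (EIF2AK3) and ATF6, and each starts a branch of the unfolded protein response. IRE1 splices XBP1 mRNA so that it encodes an active transcription factor, ATF6 is cut in the Golgi to release one, and PERK phosphorylates the translation factor eIF2α and so favours translation of ATF4. Together these factors induce chaperones, folding enzymes, secretory components and the machinery that returns misfolded proteins to the cytosol for degradation. Gene-level values do not show XBP1 splicing, ATF6 cleavage or PERK activity, and none of these was measured here.

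Levels are FPKM, fragments scaled to transcript length and to library depth, so levels of different genes can be set side by side. The depth was estimated as 34.4 to 37.9 M fragments per library (M, 10 to the power of 6) from the steps between low values, and 13244 to 13597 genes per library had at least 1 FPKM. Of 8 HEK293T markers, 6 averaged at least 1 FPKM, and PAX2 and LHX1 stayed lower. The summed level of those 8 was 122.8 to 129.2 FPKM in FAC+BafA1, 149.2 to 164.9 in BafA1, 115.9 to 118.8 in FAC and 113.1 to 118.8 in control, and its part in the results was not tested. Of 8 plasma cell markers, a professional secretory cell type, SDC1 alone averaged at least 1 FPKM. None of 8 keratinocyte or HeLa markers did, and of 8 fibroblast markers COL1A1 and FBN1 did. Libraries with and without FAC were filled differently for a set of 627 genes: each was listed at 0 throughout the 6 libraries of one kind and reached 1 FPKM in every library of the other kind. None of the 33 genes is in that set. Over the tested genes on log2(FPKM + 1), pairs of libraries that differ in FAC had a Pearson correlation of 0.8725 to 0.9068, against 0.9587 to 0.9914 between groups alike in FAC and 0.9927 to 0.9952 within groups, and a difference between the libraries with and without FAC other than iron cannot be told apart from iron. In bulk RNA, fewer cells of a kind and less RNA per cell cannot be told apart.

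With BafA1 and no added iron, most of the 33 genes rose. The genes for DNAJB9, HERPUD1, SEC24D and EIF2AK3 rose most, at 8.27-fold, 6.27-fold, 5.72-fold and 4.93-fold on the ratio of mean FPKM, and HSPA5 rose 3.32-fold. With iron present, most of these increases were much smaller or were not detected, and iron alone moved none of the 33 past the test's threshold. Summed over the 33 genes, the level was 3480 ± 19.5 FPKM in FAC+BafA1, 5839 ± 93.0 in BafA1, 3433 ± 25.1 in FAC and 3366 ± 5.04 in control (SD, n = 3 each). Their share of all FPKM was 0.547 ± 0.00268% in FAC+BafA1, 0.969 ± 0.0120% in BafA1, 0.531 ± 0.00632% in FAC and 0.522 ± 0.00508% in control.

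**Figure D1:**
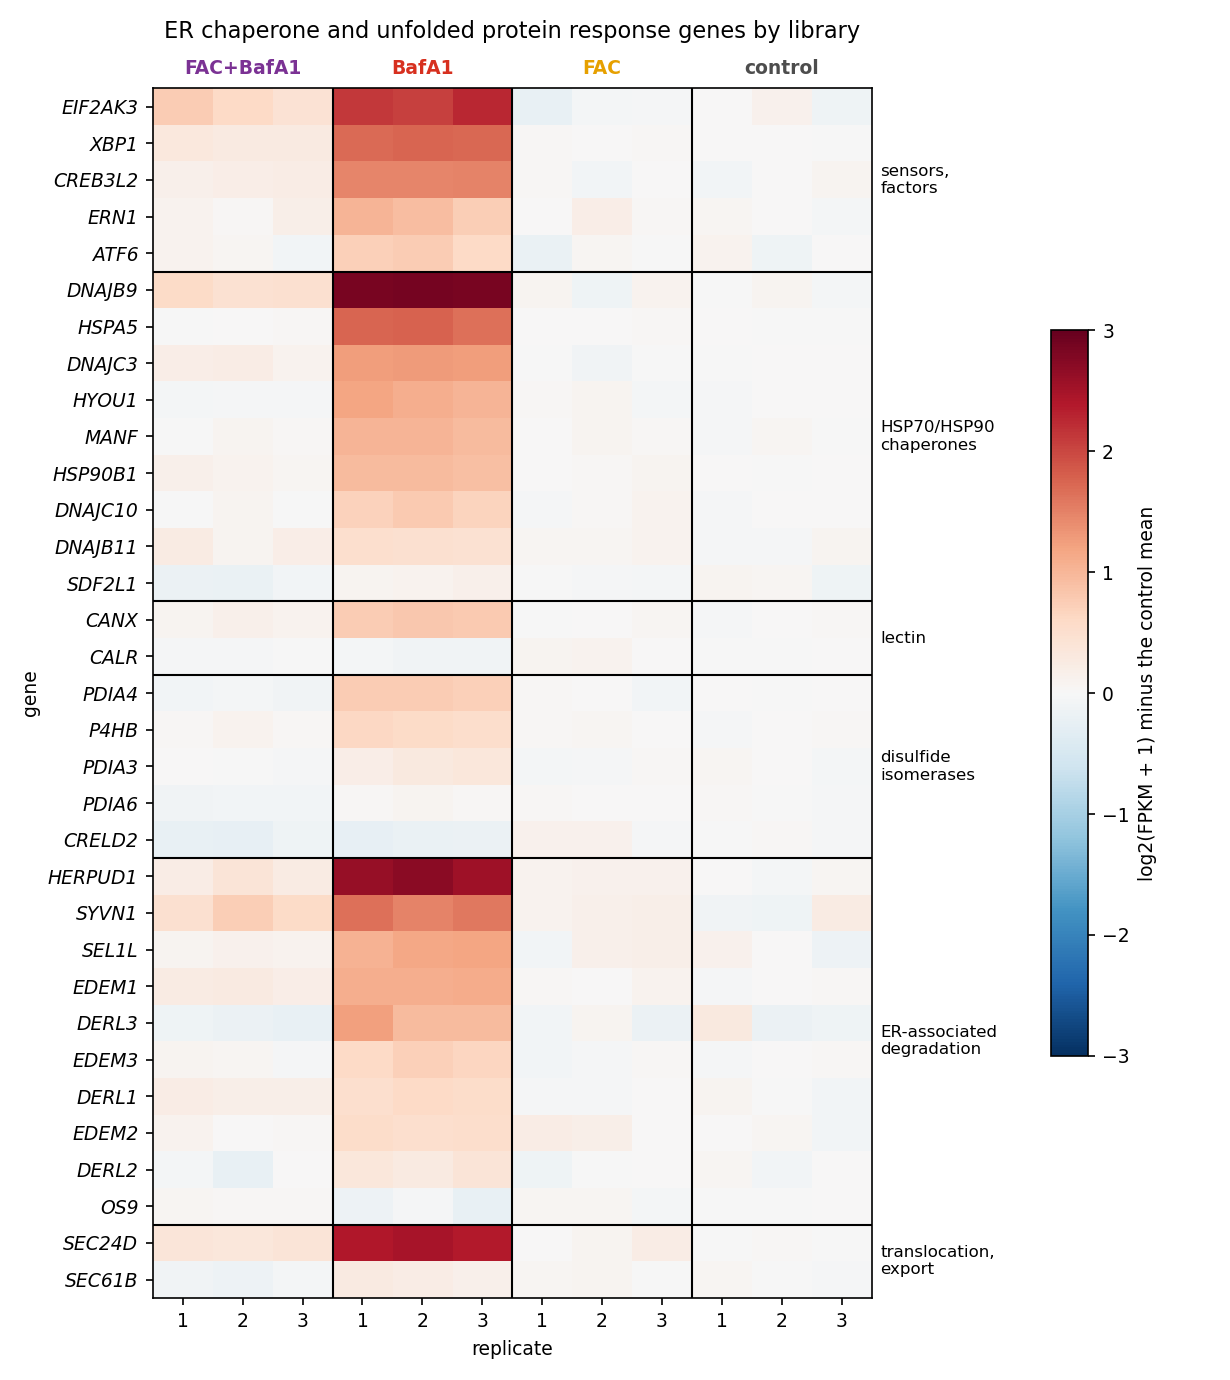
Level of each of the 33 genes in each of the 12 libraries, as log2(FPKM + 1) minus the mean of the 3 control libraries (red higher, blue lower), with genes grouped by role and libraries by group. The 3 BafA1 columns stand out in red for most genes, while the FAC+BafA1 columns are faintly coloured and the FAC columns are close to control.

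Groups were compared on log2(FPKM + 1) with limma over the 13682 genes that averaged 1 FPKM or more, and a gene was called at a Benjamini-Hochberg adjusted p under 0.05. Changes are on this log2 scale, with limma's standard error. All 33 genes passed the minimum. For BafA1 against control, 28 were called higher, 3 lower (CRELD2, CALR and OS9) and 2 were not called (SDF2L1 and PDIA6). Under median-of-ratios scaling and under quantile normalization the calls were 30 higher and 1 lower (CRELD2). Calls were common in this comparison: 67.1% of all tested genes were called, 29.5% higher and 37.6% lower. That split depended on the scaling: 4039 genes were higher and 5141 lower as reported, against 4582 higher and 4515 lower under median-of-ratios scaling. An increase of at least 1 log2 unit was less common, at 2.82% of all genes, and 13 of the 33 had one. The median change of the 33 was 0.79, and that of all tested genes was -0.04. The 3 BafA1 libraries did not overlap the 3 control libraries for 31 of the 33 genes, and for 68.7% of all genes.

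Promoters of this response are known for the ER stress response element (ERSE), read by ATF6 with NF-Y and by XBP1, and for the shorter ERSE-II first described in HERPUD1. The 250 bases before the RefSeq start were searched on both strands in the 29 of 33 genes that matched the RefSeq promoter table (GRCh38.p14). PDIA3, DERL1, DERL3 and SEC24D were not searched. The windows of 3 genes that rose and 3 that were called lower or not called are shown to set like elements beside unlike responses. Capitals mark matches to ERSE (CCAAT, 9 unspecified bases and CCACG), ERSE-II (ATTGG, 1 unspecified base and CCACG), the core of the XBP1-bound unfolded protein response element (UPRE, TGACGTGG) and the core of the amino acid response element bound by ATF4 (TGATGNAA). Within ERSE and ERSE-II only the fixed bases are in capitals, and a match on the opposite strand appears as its reverse complement. The windows run 5′ to 3′ along the gene: HSPA5 is chr9:125241344-125241593 on the minus strand, HERPUD1 chr16:56931892-56932141 on the plus strand, HYOU1 chr11:119057206-119057455 on the minus strand, SDF2L1 chr22:21642052-21642301 on the plus strand, CALR chr19:12938359-12938608 on the plus strand and CRELD2 chr22:49918384-49918633 on the plus strand.
HSPA5: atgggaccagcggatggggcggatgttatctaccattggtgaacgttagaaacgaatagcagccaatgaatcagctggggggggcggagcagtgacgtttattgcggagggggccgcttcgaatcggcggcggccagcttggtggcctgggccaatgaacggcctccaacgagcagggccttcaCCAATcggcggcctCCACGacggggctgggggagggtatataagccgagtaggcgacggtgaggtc
HERPUD1: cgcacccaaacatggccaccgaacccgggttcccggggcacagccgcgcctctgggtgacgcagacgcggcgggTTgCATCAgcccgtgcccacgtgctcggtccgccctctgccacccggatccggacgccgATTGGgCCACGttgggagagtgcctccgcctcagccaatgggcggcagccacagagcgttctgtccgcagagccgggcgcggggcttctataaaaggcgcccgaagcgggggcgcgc
HYOU1: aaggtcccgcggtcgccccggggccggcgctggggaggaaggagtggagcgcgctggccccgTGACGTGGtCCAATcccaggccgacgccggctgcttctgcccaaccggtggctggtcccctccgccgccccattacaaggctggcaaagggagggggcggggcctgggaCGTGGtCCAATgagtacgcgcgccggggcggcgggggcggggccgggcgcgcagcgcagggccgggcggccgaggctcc
SDF2L1: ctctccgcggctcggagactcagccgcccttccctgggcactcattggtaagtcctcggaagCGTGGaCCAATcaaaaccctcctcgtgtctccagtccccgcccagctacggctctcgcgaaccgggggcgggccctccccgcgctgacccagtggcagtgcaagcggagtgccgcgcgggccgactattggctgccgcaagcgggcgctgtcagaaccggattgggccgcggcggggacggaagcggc
CALR: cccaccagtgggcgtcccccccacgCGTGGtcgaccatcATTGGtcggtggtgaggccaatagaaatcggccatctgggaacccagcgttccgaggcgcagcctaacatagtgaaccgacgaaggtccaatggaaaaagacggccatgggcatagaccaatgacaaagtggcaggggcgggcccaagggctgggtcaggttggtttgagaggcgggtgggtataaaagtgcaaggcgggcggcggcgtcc
CRELD2: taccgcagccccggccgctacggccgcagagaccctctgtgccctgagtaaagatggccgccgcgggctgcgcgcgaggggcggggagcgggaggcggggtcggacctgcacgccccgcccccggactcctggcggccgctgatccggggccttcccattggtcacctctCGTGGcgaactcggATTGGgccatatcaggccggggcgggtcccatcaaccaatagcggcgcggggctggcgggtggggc

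An ERSE stood in 6 of the 29 windows (20.7%), in HSPA5, HSP90B1, XBP1, CANX, CALR and CRELD2, against 26 of 35116 promoters of the same length in the whole table (0.074%). The elements of the 6 genes, read on the strand that holds them, share both ends and differ in the spacer. HSP90B1 has a pair of them, of which the one nearer the start is shown as the lower line.
HSPA5: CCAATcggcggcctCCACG
XBP1: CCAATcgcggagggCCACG
CANX: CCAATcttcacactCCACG
HSP90B1: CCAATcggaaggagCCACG
HSP90B1: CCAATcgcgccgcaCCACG
CALR: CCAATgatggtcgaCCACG
CRELD2: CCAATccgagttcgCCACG

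ERSE-II stood in 3 windows (10.3%), in HERPUD1, HYOU1 and SDF2L1, against 18 in the whole table (0.0513%), and HYOU1 held 2 copies. The UPRE core was found in DNAJC10 and HYOU1 (6.9%), against 215 in the whole table (0.612%), and in HYOU1 it overlapped an ERSE-II. The amino acid response element core was found in HERPUD1 alone (3.45%), against 1104 in the whole table (3.14%). The 33 genes were listed as genes of this response, several of them known from such elements, so their motif shares are a description. The promoters of the whole table were not filtered by gene type, whereas the 33 genes are all protein-coding. Genes with an exact ERSE were among those that rose and those called lower. Of the 6 with one, 4 rose and 2 were called lower, with a median change of 0.86. Of those 2, CALR was not called under median-of-ratios scaling and was called higher under quantile normalization, while CRELD2 was called lower under both. Of the 23 without one, 20 rose, OS9 was called lower and SDF2L1 and PDIA6 were not called, with a median of 0.75. With at most 1 mismatch allowed, an ERSE stood in 11 of the 29 windows (37.9%), against 477 of 35116 promoters (1.36%). Such a near match without an exact one was held by HERPUD1 (2.62), SYVN1 (1.57), DNAJC3 (1.27), SEL1L (1.12) and SDF2L1 (0.11), so the genes without an exact ERSE do not all lack a similar element. DNAJB9, EIF2AK3, SYVN1 and CREB3L2, which rose by 1.47 or more, held no exact match to any of the 4 motifs in this window. A match is not proof of a site, and other distances were not searched.

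**Figure D2:**
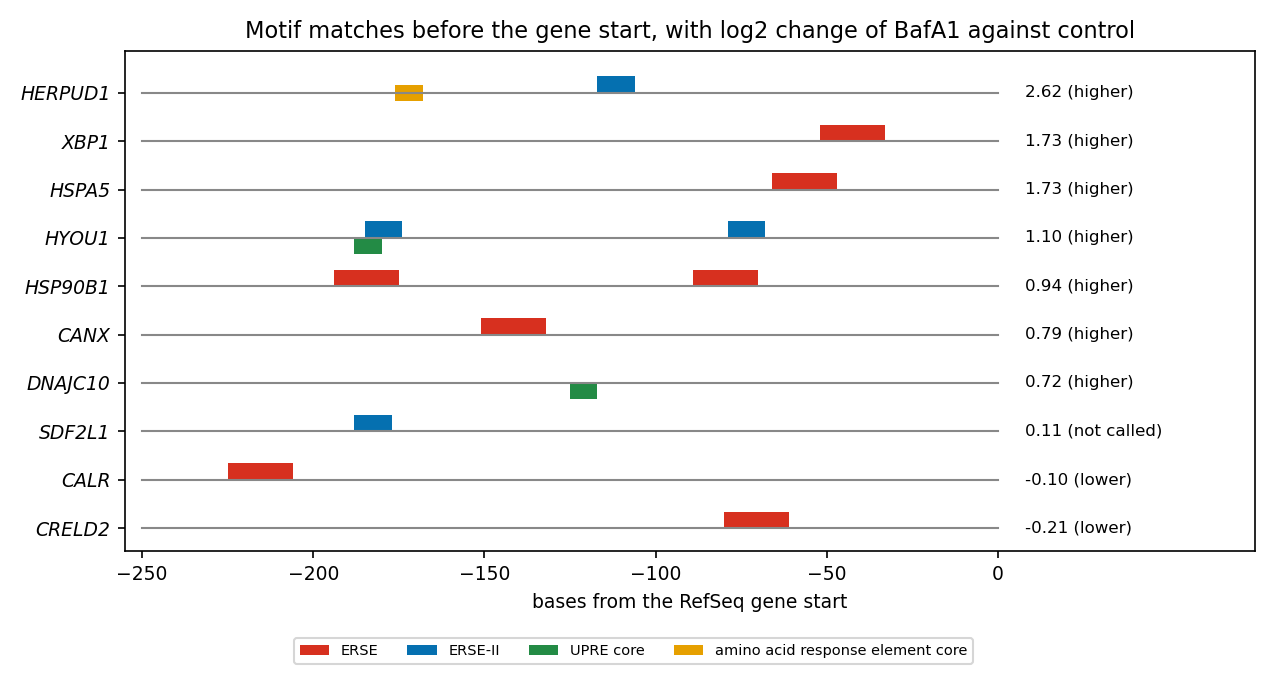
Position of exact motif matches in the 250 bases before the RefSeq start of the 10 genes that hold one (x axis, bases from the start; boxes coloured by motif, drawn above or below the line only to keep them apart), with the log2 change of BafA1 against control at the right. CALR and CRELD2 hold an ERSE and were called lower, at -0.10 (higher under quantile normalization) and -0.21, while HERPUD1 holds an ERSE-II and changed by 2.62.

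All 5 sensor and transcription factor genes rose with BafA1, against 29.5% of all tested genes called higher. XBP1 was at 288, 295 and 292 FPKM in the BafA1 libraries, against 87.6, 87.6 and 86.7 FPKM in control. Every BafA1 library was above every control library, and the change was 1.73 ± 0.02 (adjusted p = 3.47e-13). CREB3L2 encodes an ER-anchored transcription factor related to ATF6 that is cleaved like it, with roles in secretion. CREB3L2 was at 49.5, 50 and 50.2 FPKM in the BafA1 libraries, against 16.3, 17.5 and 18.3 FPKM in control, a change of 1.47 ± 0.05 (adjusted p = 1.09e-10). The groups stood apart, with little spread in either. EIF2AK3, which encodes PERK, rose most of the sensors. EIF2AK3 was at 31.1, 29.7 and 34.7 FPKM in the BafA1 libraries, against 6.50, 7.07 and 5.80 FPKM in control, a change of 2.14 ± 0.09 (adjusted p = 1.73e-09). ERN1, which encodes IRE1, was a low gene: it was at 7.55, 6.92 and 6.04 FPKM in BafA1, against 3.33, 3.19 and 3.05 FPKM in control, a change of 0.90 ± 0.08 (adjusted p = 1.18e-06). ATF6 was at 25.6, 26.6 and 23.5 FPKM in the BafA1 libraries, against 16.6, 13.9 and 15.4 FPKM in control, a change of 0.69 ± 0.08 (adjusted p = 9.05e-06). The 3 sensors therefore differed in size of increase, from 1.65-fold for ATF6 and 2.14-fold for ERN1 to 4.93-fold for EIF2AK3, and in none did the groups overlap.

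Of 9 genes of HSP70 and HSP90 family chaperones and their cofactors, 8 rose and SDF2L1 was not called. Over all tested genes, 29.5% were called higher with BafA1. HSPA5 (chr9:125234853-125241382, GRCh38) encodes BiP, the main HSP70 of the ER. HSPA5 was at 611, 629.9 and 579 FPKM in the BafA1 libraries, against 186, 183 and 179.9 FPKM in control, a change of 1.73 ± 0.03 (adjusted p = 1.86e-12). HSP90B1 encodes GRP94, the HSP90 of the ER. HSP90B1 was at 821, 828 and 798 FPKM in the BafA1 libraries, against 430.5, 421 and 427 FPKM in control, a change of 0.94 ± 0.03 (adjusted p = 9.93e-11). Both were high in all 3 BafA1 libraries, and HSPA5 changed more while HSP90B1 had the higher level. HYOU1 encodes GRP170, an HSP70 relative that exchanges nucleotide on BiP. HYOU1 was at 128, 120.0 and 115 FPKM in the BafA1 libraries, against 54.7, 56.3 and 56.5 FPKM in control, a change of 1.10 ± 0.04 (adjusted p = 9.97e-10).

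The J-domain cofactors of BiP rose to different degrees. DNAJB9 (chr7:108569867-108574850), which encodes ERdj4, a cofactor that also restrains IRE1, had the largest change of the 33 genes. DNAJB9 was at 51.8, 52.6 and 51.6 FPKM in the BafA1 libraries, against 6.17, 6.68 and 6.01 FPKM in control, a change of 2.86 ± 0.06 (adjusted p = 8.37e-12). It was a low gene in control and remained well below HSPA5 in BafA1. DNAJC3 encodes p58IPK, which also inhibits PERK. DNAJC3 was at 34.1, 34.7 and 34.1 FPKM in the BafA1 libraries, against 13.5, 13.7 and 13.7 FPKM in control, a change of 1.27 ± 0.04 (adjusted p = 1.79e-10). DNAJC10, which encodes a disulfide reductase with a J-domain, averaged 124 ± 5.63 FPKM in BafA1 and 75.3 ± 1.23 FPKM in control (SD, n = 3 each), and rose by 0.72. DNAJB11, which encodes ERdj3, averaged 87.7 ± 1.45 FPKM in BafA1 and 62.4 ± 2.79 FPKM in control (SD, n = 3 each), and rose by 0.49. MANF encodes a secreted cofactor of BiP. MANF was at 321, 323 and 308 FPKM in the BafA1 libraries, against 154, 164 and 156 FPKM in control, a change of 0.998 ± 0.03 (adjusted p = 1.73e-10). SDF2L1 encodes a partner of ERdj3. SDF2L1 was at 37.7, 38.5 and 39.8 FPKM in the BafA1 libraries, against 37.8, 37.2 and 32.5 FPKM in control, and the change of 0.11 ± 0.05 did not pass (adjusted p = 0.0945). Its BafA1 libraries overlapped control replicate 1, and without that library the change was 0.15 and was called (adjusted p = 0.0407), as it was under median-of-ratios scaling (0.17, adjusted p = 0.0156).

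The lectin chaperones and the disulfide isomerases did not all change in one direction. CANX encodes calnexin, the membrane-bound lectin that holds glycoproteins while they fold. CANX was at 829.7, 854 and 838 FPKM in the BafA1 libraries, against 475, 488 and 495 FPKM in control, a change of 0.79 ± 0.03 (adjusted p = 2.46e-10). CALR, whose printed window holds an ERSE, encodes calreticulin, the soluble counterpart of calnexin. It was at 356, 345 and 348 FPKM in BafA1, against 369, 374 and 379.5 FPKM in control, and was called lower at -0.10 ± 0.03 (adjusted p = 0.00622). That call depended on the scaling: CALR was not called under median-of-ratios scaling (-0.03, adjusted p = 0.2745) and was called higher under quantile normalization (0.16, adjusted p = 0.000346). Of the disulfide isomerases, PDIA4 rose by 0.75, P4HB by 0.57 and PDIA3, which works with the lectins, by 0.28. PDIA6 was at 201, 209 and 201 FPKM in the BafA1 libraries, against 203, 196 and 192 FPKM in control. The groups overlapped, and the change of 0.05 ± 0.03 did not pass (adjusted p = 0.150), although PDIA6 was called higher under median-of-ratios scaling (0.11) and quantile normalization (0.22). CRELD2 encodes an ER-stress-inducible protein with isomerase activity. It was at 16.95, 17.6 and 17.8 FPKM in BafA1, against 20.1, 20.95 and 19.9 FPKM in control, and fell by 0.21 on the log2 scale with a standard error of 0.05 (adjusted p = 0.00440). All 3 BafA1 libraries were below all 3 control libraries for CRELD2.

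Of 10 genes of ER-associated degradation, 9 rose and OS9 was called lower, against 29.5% higher and 37.6% lower over all tested genes. HERPUD1 (chr16:56932142-56944864) encodes a membrane protein that assembles the degradation complex. HERPUD1 was at 243, 259 and 233 FPKM in the BafA1 libraries, against 39.3, 37.2 and 40.8 FPKM in control, a change of 2.62 ± 0.05 (adjusted p = 2.86e-12). EDEM1 encodes a mannosidase-like protein that marks misfolded glycoproteins. EDEM1 was at 26.8, 26.5 and 27.2 FPKM in the BafA1 libraries, against 11.7, 12.1 and 12.2 FPKM in control, a change of 1.10 ± 0.04 (adjusted p = 3.46e-10). Its relatives EDEM3 and EDEM2 rose by 0.65 and 0.52. The ubiquitin ligase HRD1, encoded by SYVN1, and its partner SEL1L rose together: SYVN1 averaged 41.8 ± 2.58 FPKM in BafA1 and 13.5 ± 2.14 FPKM in control (SD, n = 3 each), and SEL1L averaged 30.1 ± 1.53 FPKM in BafA1 and 13.3 ± 1.42 FPKM in control (SD, n = 3 each). Their changes were 1.57 ± 0.09 and 1.12 ± 0.08. The derlins, which form the exit channel, rose by 1.05 (DERL3), 0.55 (DERL1) and 0.33 (DERL2). OS9 encodes a lectin that brings glycoproteins to HRD1. It averaged 61.4 ± 3.93 FPKM in BafA1 and 67.6 ± 0.715 FPKM in control (SD, n = 3 each), and its change of -0.14 ± 0.04 (adjusted p = 0.0130) lost its call under median-of-ratios scaling (adjusted p = 0.163) and under quantile normalization (adjusted p = 0.0748).

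Both genes of entry into and exit from the ER rose with BafA1, against 29.5% of all tested genes called higher. SEC24D (chr4:118722823-118838683) encodes a cargo-binding subunit of the COPII coat that forms transport vesicles. SEC24D was at 65.8, 68.6 and 64.97 FPKM in the BafA1 libraries, against 11.5, 11.9 and 11.5 FPKM in control, a change of 2.42 ± 0.05 (adjusted p = 4.63e-12). SEC61B encodes a small subunit of the translocon. It averaged 201 ± 7.07 FPKM in BafA1 and 173 ± 6.92 FPKM in control (SD, n = 3 each), a change of 0.22 ± 0.04 (adjusted p = 0.000365). Among all 13682 tested genes ordered by their change, DNAJB9 was at place 21, HERPUD1 at 28, SEC24D at 33 and EIF2AK3 at 48.

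**Figure D3:**
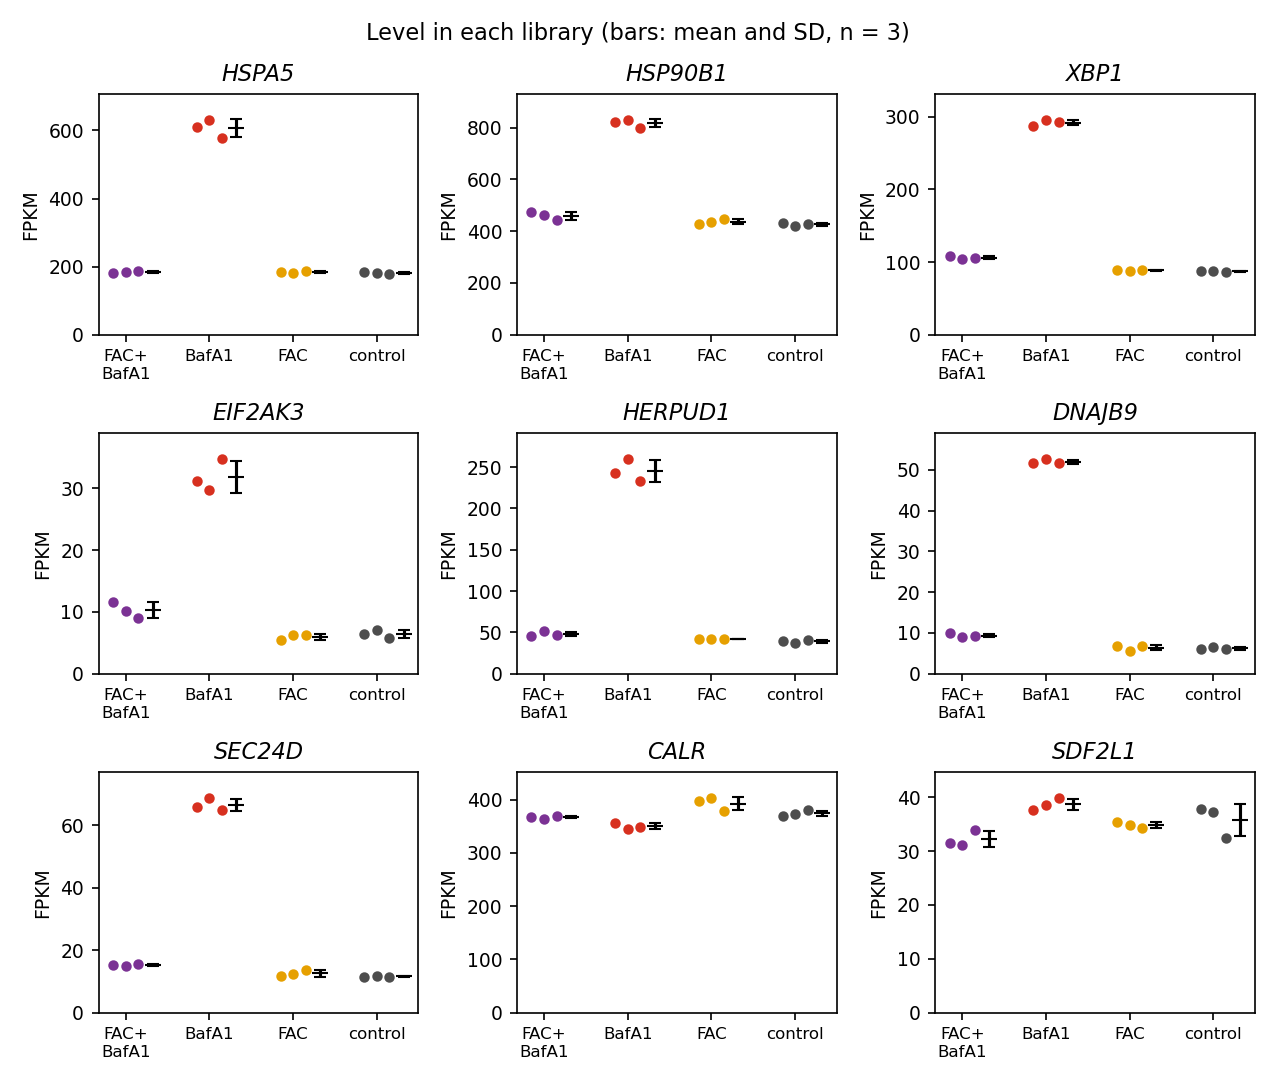
FPKM of 9 of the genes in each library (points) with the mean and SD of each group (bars, n = 3), each panel with an axis from 0. HSPA5, HSP90B1, XBP1, EIF2AK3, HERPUD1, DNAJB9 and SEC24D are highest in the BafA1 libraries, while CALR and SDF2L1 differ little between groups.

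Of the 33 genes, 18 share exons with a neighbour in the reference annotation, and the sources used here do not give whether counting used the strand. DERL2 overlaps MIS12 on the opposite strand, which averaged 51.3 FPKM in BafA1 and 22.9 FPKM in control, so the smaller change of DERL2 is uncertain. DERL3, a low gene at 7.70 FPKM in BafA1 and 3.23 FPKM in control, overlaps the high gene SMARCB1. SYVN1 shares sequence with FAU on the same strand, which averaged 422 FPKM in BafA1 and 544 FPKM in control, opposite in direction to SYVN1. CALR overlaps an unnamed antisense transcript that averaged 25.3 FPKM in FAC+BafA1, 0.137 in BafA1, 27.8 in FAC and 0.0533 in control. HYOU1 overlaps another, at 0.863 FPKM in FAC+BafA1, 3.40 in BafA1, 0.610 in FAC and 7.69 in control. CRELD2 overlaps ALG12 on the opposite strand, which averaged 13.4 FPKM in FAC+BafA1, 11.6 in BafA1, 11.7 in FAC and 11.5 in control. The part of these neighbours in the results was not tested. The pseudogene PDIA3P1 was at 3.57 to 5.11 FPKM, and listed pseudogenes of HSPA5, HSP90B1 and XBP1 were at 0.52 FPKM or less.

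Iron alone left these genes close to control, although FAC and control libraries stood apart over all genes, with correlations of 0.9068 or less. For FAC against control, none of the 33 was called with limma, against 9.56% of all tested genes (4.72% higher and 4.84% lower), and 3 had an unadjusted p under 0.05. That share depended on the minimum level. With a mean of at least 5 FPKM, 402 of 9655 genes were called, and none of the 31 that remained of the 33. Few calls would fall among 31 genes at that share in any case. The changes of the 33 lay between -0.10 and 0.14, and 2 of them (HERPUD1 and XBP1) had groups that did not overlap, against 20.3% of all genes. HSPA5 was at 184, 183 and 188 FPKM in FAC, against 186, 183 and 179.9 FPKM in control, and its change was 0.02 ± 0.03 (adjusted p = 0.892). HERPUD1 was at 42.1, 42.6 and 42.5 FPKM in FAC, against 39.3, 37.2 and 40.8 FPKM in control, a change of 0.12 ± 0.05 (adjusted p = 0.257). Without FAC replicate 3, CALR was called higher at 0.09 (adjusted p = 0.0295).

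With iron already present, BafA1 raised fewer of the genes and by less. For FAC+BafA1 against FAC, 11 of the 33 were called higher, 4 were called lower and 18 were not called, against 19.3% of all genes called, 9.76% higher and 9.49% lower. The median change was 0.02, and that of all genes was 0.00059. The groups did not overlap for 16 of the 33, and for 36.9% of all genes. The 11 were XBP1, CREB3L2 and EIF2AK3 among the sensors and factors, DNAJB9 and DNAJC3 among the BiP cofactors, the lectin chaperone CANX, the degradation genes HERPUD1, SYVN1, EDEM1 and DERL1, and SEC24D. Without FAC replicate 1 the calls were 9 higher and 1 lower, with HERPUD1, CANX, PDIA6, CALR and SEC61B lost, and under quantile normalization they were 12 higher and 1 lower.

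EIF2AK3 had the largest increase with iron: it was at 11.6, 10.2 and 9.07 FPKM in FAC+BafA1, against 5.42, 6.20 and 6.28 FPKM in FAC, a change of 0.69 ± 0.09 (adjusted p = 0.000379). DNAJB9 was at 9.87, 9.03 and 9.21 FPKM in FAC+BafA1, against 6.73, 5.67 and 6.83 FPKM in FAC, a change of 0.49 ± 0.06 (adjusted p = 0.000326). Every FAC+BafA1 library was above every FAC library for both genes. SYVN1 was at 18.9, 22.8 and 20.5 FPKM in FAC+BafA1, against 14.4, 14.9 and 15.2 FPKM in FAC, a change of 0.46 ± 0.09 (adjusted p = 0.00544). XBP1 was at 109, 105 and 105 FPKM in FAC+BafA1, against 88.8, 87.8 and 89.3 FPKM in FAC, a change of 0.26 ± 0.02 (adjusted p = 2.32e-05). SEC24D was at 15.2, 15.01 and 15.5 FPKM in FAC+BafA1, against 11.8, 12.3 and 13.7 FPKM in FAC, a change of 0.26 ± 0.05 (adjusted p = 0.00415). These groups did not overlap either, but the levels stayed far below those with BafA1 alone. CREB3L2, DNAJC3, EDEM1 and DERL1 changed by 0.20, 0.22, 0.19 and 0.21. HERPUD1 was at 46.1, 51.3 and 46.9 FPKM in FAC+BafA1, against 42.1, 42.6 and 42.5 FPKM in FAC, a change of 0.18 ± 0.05 (adjusted p = 0.0280). CANX was at 515, 537 and 526 FPKM in FAC+BafA1, against 481, 486 and 507 FPKM in FAC, a change of 0.10 ± 0.03 (adjusted p = 0.0255). The calls of HERPUD1 and CANX were lost in several of the alternatives tried, among them the fit without the intensity trend.

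The genes for BiP, GRP94, GRP170 and MANF were not called with iron present. HSPA5 was at 182, 186 and 187 FPKM in FAC+BafA1, against 184, 183 and 188 FPKM in FAC, and its groups overlapped, with a change of 0.00045 ± 0.03 (adjusted p over 0.99). HSP90B1 was at 473, 460.5 and 443 FPKM in FAC+BafA1, against 428, 435 and 448 FPKM in FAC, a change of 0.07 ± 0.03 (adjusted p = 0.114), but under quantile normalization it was called higher at 0.14 (adjusted p = 0.00432). MANF was at 158, 167 and 163 FPKM in FAC+BafA1, against 159.6, 167 and 163 FPKM in FAC, a change of -0.0028 ± 0.03 (adjusted p = 0.988). HYOU1 was at 53.3, 54.5 and 54.4 FPKM in FAC+BafA1, against 57.2, 59.1 and 53.3 FPKM in FAC, a change of -0.06 ± 0.04 (adjusted p = 0.377). The sensors ATF6 and ERN1 were not called either, at 0.08 ± 0.08 and 0.01 ± 0.08: ATF6 was at 16.4, 15.8 and 14.4 FPKM in FAC+BafA1, against 13.1, 15.8 and 15.03 FPKM in FAC, and ERN1 at 3.49, 3.26 and 3.71 FPKM in FAC+BafA1, against 3.25, 3.84 and 3.30 FPKM in FAC. SDF2L1 was at 31.6, 31.1 and 33.98 FPKM in FAC+BafA1, against 35.5, 34.9 and 34.4 FPKM in FAC, and its change of -0.11 ± 0.05 was not called (adjusted p = 0.176). Genes called lower were CRELD2 at -0.27, SEC61B at -0.15, PDIA6 at -0.10 and CALR at -0.10. PDIA6 was at 184, 187 and 186 FPKM in FAC+BafA1, against 203, 198 and 197 FPKM in FAC. The calls of SEC61B, PDIA6 and CALR, of 0.15 log2 units or less in size, were lost in several alternatives, quantile normalization among them.

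The effect of iron on the BafA1 response was tested as an interaction, which is the BafA1 change in cells with FAC less that in cells without. It was negative and called for 30 of the 33 genes. Over all genes 50.1% were called, 20.6% negative and 29.5% positive. That split depended on the scaling: 2818 genes were negative and 4032 positive as reported, against 3429 negative and 3332 positive under median-of-ratios scaling, while the 33 genes had 30 negative calls and no positive one with that scaling. It was positive for OS9 at 0.16 ± 0.06 (adjusted p = 0.0467), a call lost in most alternatives, and was not called for CRELD2 and CALR. HERPUD1 had the largest difference, -2.44 ± 0.07 (adjusted p = 5.52e-10), followed by DNAJB9 at -2.38 ± 0.09 (adjusted p = 4.43e-09) and SEC24D at -2.16 ± 0.07 (adjusted p = 1.96e-09). HSPA5 differed by -1.72 ± 0.04 (adjusted p = 1.93e-10), XBP1 by -1.47 ± 0.03 (adjusted p = 1.62e-10) and EIF2AK3 by -1.45 ± 0.13 (adjusted p = 3.68e-06). All 28 genes that rose with BafA1 alone changed less with iron at this test, against 66.0% of all genes called higher with BafA1. Both sets were picked on BafA1 and control libraries that also enter the interaction, which favours a smaller change with iron. Of the 28, 11 were still called higher with iron, SEC61B was called lower and 16 were not called.

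The share of the log2 change that remained with iron had a median of 7.08% over the 28 genes and 19.96% over all genes called higher with BafA1. The libraries that picked these genes also enter the share, so it is a description. The sets were not matched for size of change: 13 of the 28 and 386 of the 4039 rose by at least 1 log2 unit. Within the 28 the share ran from -68.5% for SEC61B, which turned lower, to 37.5% for DERL1. It was 32.4% for EIF2AK3, 28.99% for SYVN1, 17.04% for DNAJB9, 14.9% for XBP1 and 6.71% for HERPUD1. Genes with similar increases in BafA1 had different shares: EIF2AK3 and SEC24D changed by 0.69 and 0.26 with iron, and by 2.14 and 2.42 without it. XBP1 and HSPA5 had changes of 0.26 and 0.00045 with iron, and both changed by 1.73 without it. Differences in kept share between genes were not tested.

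**Figure D4:**
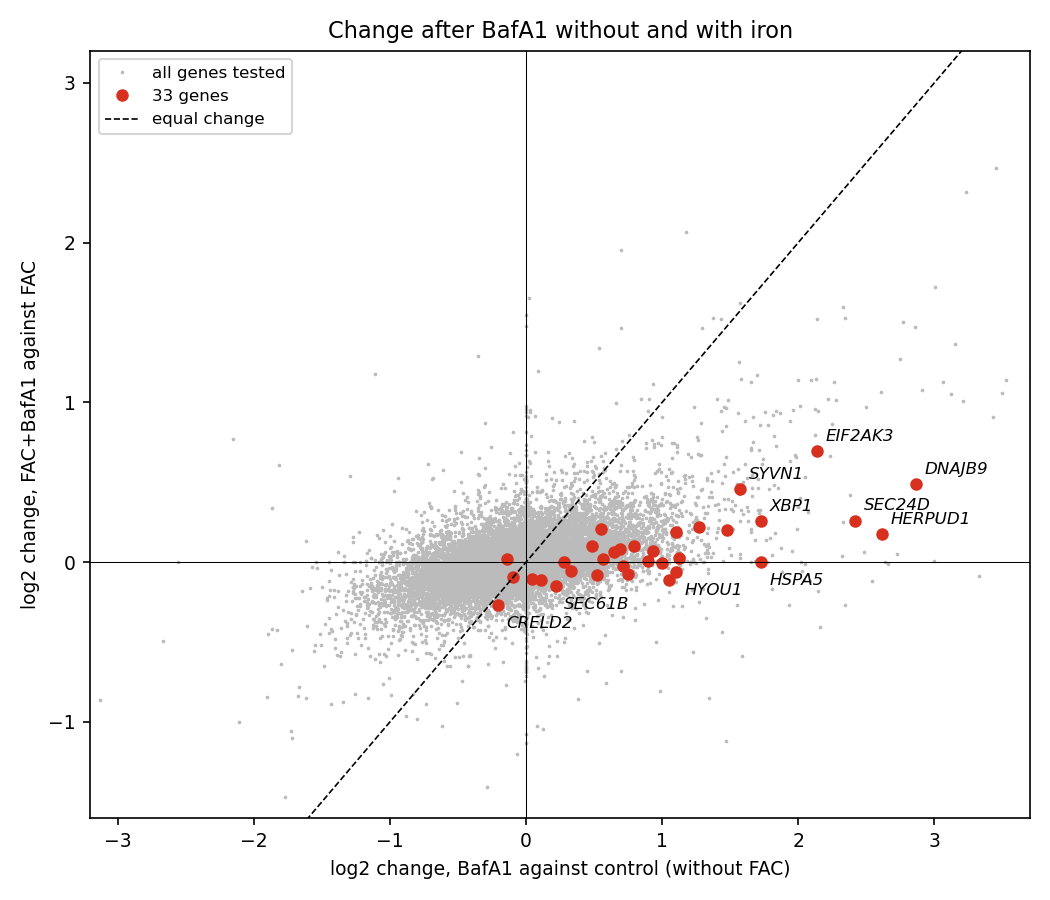
Log2 change of FAC+BafA1 against FAC (y axis) and of BafA1 against control (x axis) for all tested genes (grey; 11 lie outside the axes) and the 33 genes (red), with a dashed line where both changes are equal. Most of the 33 spread to the right along the zero line; EIF2AK3 at 0.69 and DNAJB9 at 0.49 lie highest among them.

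Set directly against BafA1 without iron, the FAC+BafA1 cells were lower in 30 of the 33 genes, higher in OS9 and CALR, and not called for CRELD2, against 67.9% of all genes called, 38.8% higher and 29.1% lower. Groups did not overlap for 32 of the 33, and for 71.2% of all genes. This comparison shares its libraries with those above and is given for the levels. The median of the 33 was -0.80. For HSPA5 the mean was 185 ± 2.88 FPKM in FAC+BafA1 and 607 ± 25.8 FPKM in BafA1 (SD, n = 3 each), and for HERPUD1 it was 48.1 ± 2.80 FPKM in FAC+BafA1 and 245 ± 13.5 FPKM in BafA1 (SD, n = 3 each). The CALR call was 0.07 ± 0.03 and turned to -0.13 under quantile normalization. Set against untreated control, the FAC+BafA1 cells were higher in 13 genes and lower in CRELD2 and PDIA6, against 32.9% of all genes called, 16.2% higher and 16.6% lower. Groups did not overlap for 20 of the 33, and for 46.1% of all genes. The 13 were the 11 named for FAC+BafA1 against FAC with DNAJB11 (0.17) and HSP90B1 (0.11). The PDIA6 call, at -0.09, was lost under both other scalings, without the intensity trend, with the compared groups alone and without any 1 of 5 libraries. HSP90B1 lost its call without the intensity trend, without control replicate 2 (adjusted p = 0.0515) and without FAC+BafA1 replicate 1 (adjusted p = 0.0617). DNAJB11 lost its call without FAC+BafA1 replicate 1 (adjusted p = 0.0503), and CRELD2 without control replicate 2 (adjusted p = 0.0581) or FAC+BafA1 replicate 2 (adjusted p = 0.0603). EIF2AK3 averaged 10.3 ± 1.28 FPKM in FAC+BafA1 and 6.46 ± 0.636 FPKM in control (SD, n = 3 each), and SYVN1 averaged 20.7 ± 1.95 FPKM in FAC+BafA1 and 13.5 ± 2.14 FPKM in control (SD, n = 3 each).

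Other genes were counted from lists that share no member with the 33. The lists covered the ER and its stress response, protein export, the amino acid response and heat shock chaperones. Every gene named from them here was called for BafA1 against control. Over all tested genes, 29.5% were called higher and 37.6% lower in that comparison, and 9.76% higher and 9.49% lower for FAC+BafA1 against FAC. In the list named for the PERK branch, 7 of 8 genes rose with BafA1 against control, with a median change of 2.63. PERK activity was not measured, and whether PERK had a part in these changes was not tested. ATF3, a stress-induced transcription factor, had changes of 2.17 with iron and 4.70 without it. PPP1R15A, which encodes GADD34, the subunit that reverses PERK's phosphorylation of eIF2α, had changes of 1.05 with iron and 3.12 without it. DDIT3, which encodes the transcription factor CHOP, averaged 90.03 ± 3.60 FPKM in BafA1 and 7.48 ± 0.890 FPKM in control (SD, n = 3 each). All 8 had a negative interaction that was called, from -2.68 to -0.21, against 20.6% of all genes called negative. With iron, 4 of the 8 were called higher and 1 lower. In the amino acid response that ATF4 also drives, 27 of 30 genes rose and 1 was called lower with BafA1 alone, with a median of 1.17. With iron, 6 were called higher and 10 lower in that list, with a median of -0.10. CTH, an enzyme of cysteine synthesis, had changes of 0.27 with iron and 3.01 without it, and ASNS, asparagine synthetase, of -0.27 with iron and 1.55 without it.

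The list of the ATF6 and CREB3 family and its proteases also held CREBZF, ERN2 and RTCB. Of its 8 tested genes, 4 rose, CREBZF among them, and 1 was called lower with BafA1, with a median of 0.18. The gene called lower was RTCB, which averaged 93.0 ± 1.29 FPKM in BafA1 and 102.0 ± 0.999 FPKM in control (SD, n = 3 each). CREB3L4 rose by 0.95, and MBTPS2, the site-2 protease that cuts ATF6, by 0.20. Among the other folding genes of the ER, 12 of 17 oxidative folding genes rose and 3 fell. TXNDC11 and ERO1B, which oxidises disulfide isomerases, rose by 0.82 and 0.96, while PRDX4, an ER peroxiredoxin, changed by -0.65. Of 20 further folding factors, 10 rose and 6 fell, against 29.5% higher and 37.6% lower over all genes, with HSPA13, an HSP70 relative of microsomes, at 2.05, the prolyl isomerase FKBP14 at 1.34 and the calcium-binding RCN2 at -0.78. For calcium handling, 2 of 10 rose and 4 fell, close to the 29.5% and 37.6% of all genes, with the ER calcium pump gene ATP2A2 at 0.43 and SELENON at -0.82.

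Of 23 genes of signal recognition, the translocon and signal peptidase, 17 rose and 4 fell with BafA1, with a median of 0.40. For this list and the next 3, the shares over all genes were 29.5% higher and 37.6% lower. SEC61A1, the pore of the translocon, had changes of 0.15 with iron and 1.25 without it, and SSR2, a subunit of the associated complex, of 0.08 with iron and 1.12 without it. Of 22 genes of N-glycosylation, 13 rose and 8 fell, the latter close to the 37.6% of all genes. PGM3, an enzyme of UDP-GlcNAc synthesis, had changes of 0.03 with iron and 1.57 without it. Of 26 further degradation genes, 13 rose and 6 fell, among them the selenoprotein genes SELENOS at 1.52 and SELENOK at 1.31 and the lectin gene ERLEC1 at 1.29. Of 22 genes of the COPII coat and cargo receptors, 18 rose and 1 fell, with SEC23B, the partner of SEC24 subunits, at 1.16. With iron, none of those 22 was called with limma, against 19.3% of all genes. Of the 22, 3 had an unadjusted p under 0.05, and up to 2 were called under the alternatives.

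The heat shock chaperones outside the ER, most of them cytosolic (the list also holds mitochondrial HSPD1 and HSPE1), went the other way: 2 of 20 rose and 15 fell with BafA1, with a median of -0.63. Over all genes, 29.5% were called higher and 37.6% lower in that comparison. HSPA8, the constitutive cytosolic HSP70, averaged 396 ± 5.29 FPKM in BafA1 and 1190.1 ± 5.29 FPKM in control (SD, n = 3 each). HSPA5, its ER relative, rose in the same libraries. With iron, HSPA8 changed by -0.16 and HSPA1B, an inducible cytosolic HSP70 whose near-identical copy HSPA1A makes its value uncertain, by -0.86, and 12 of the 20 were called lower, against 9.49% of all genes. The interaction was positive and called for 14 of the 20, against 29.5% of all genes.

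**Figure D5:**
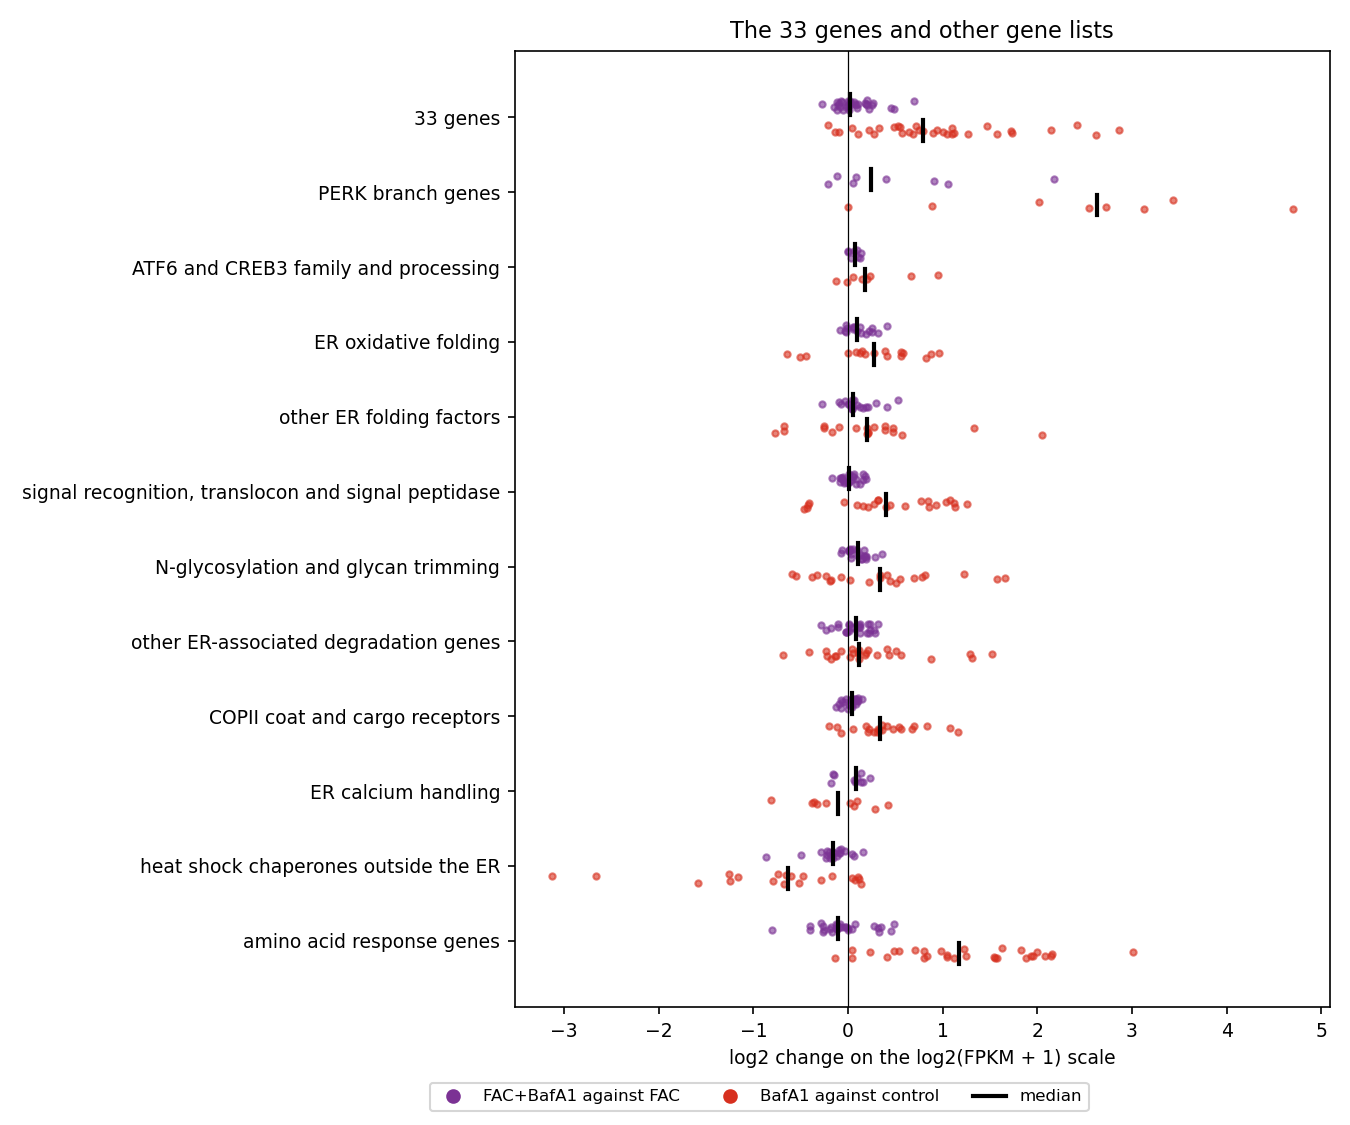
Log2 change of each tested gene (points) in the 33 genes and in 11 other lists, for FAC+BafA1 against FAC (purple, upper row of each list) and BafA1 against control (red, lower row), with medians as black bars. In red, the 33 genes, the PERK branch and the amino acid response have medians of 0.79, 2.63 and 1.17, and the heat shock chaperones outside the ER -0.63; the purple medians lie between -0.15 and 0.24.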

How the data were processed

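Polyadenylated RNA was sequenced from stranded libraries, per the labels' protocols. The deposited FPKM values were made by the authors, with STAR, RSEM and GRCh38 named in the submitters' processing notes. For versions, annotation release and strand setting: not given in the sources used here. As these are no counts, a linear model was used. Low values were within 0.2 of a whole number of fragments in 53.1% to 55.2% of cases in the libraries without FAC. In the libraries with FAC it was 64.4% to 67.8%, and the cause of this difference was not tested. By chance it would be 40%, so no counts were recovered and the depth is an estimate.

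Of 56340 entries, 3 repeats were dropped. Values were set to log2(FPKM + 1), which understates changes of low genes. limma 3.58.1 in R 4.3.3 was fitted to all 12 libraries with an intensity trend, and p-values were adjusted over 13682 genes. A run on simulated data with independent noise checked the code only and does not bear on the calls in these data. Positions come from GENCODE release 44 on GRCh38 and promoters from RefSeq.

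The 33 genes and all lists were chosen with earlier results of these data known. Values per library are given for the 12 genes with the smallest adjusted p for BafA1 against control, the sensors and factors, and the uncalled genes, and for CALR, CRELD2 and SYVN1, chosen after their values were seen. In other lists up to 3 called genes with the smallest adjusted p are named. Values of FAU, MIS12, CALR's antisense transcript and other neighbours were chosen after they were seen. Alternatives covered the pseudocount, the minimum, scaling, the variance model, the replicate block and leaving out each library.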

Additional observations from a re-analysis of the deposited data

Results flagged for a closer look

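The BafA1 change differed between cells with and without FAC, tested as the limma interaction on log2(FPKM + 1), in 31 of the 33 genes, with 30 differences negative and 1 positive (adjusted p under 0.05 over all tested genes, of which 50.1% were called). Values are the change with FAC minus the change without it. Among sensors and transcription factors the difference was -1.47 for XBP1, -1.45 for EIF2AK3, -1.27 for CREB3L2, -0.89 for ERN1 and -0.61 for ATF6. For the HSP70 and HSP90 family chaperones and cofactors it was -2.38 for DNAJB9, -1.72 for HSPA5, -1.16 for HYOU1, -1.05 for DNAJC3, -1.001 for MANF, -0.87 for HSP90B1, -0.74 for DNAJC10, -0.38 for DNAJB11 and -0.22 for SDF2L1. In ER-associated degradation it was -2.44 for HERPUD1, -1.16 for DERL3, -1.12 for SYVN1, -1.10 for SEL1L, -0.91 for EDEM1, -0.60 for EDEM2, -0.59 for EDEM3, -0.38 for DERL2 and -0.34 for DERL1, and the positive difference was 0.16 for OS9. Among the disulfide isomerases it was -0.82 for PDIA4, -0.55 for P4HB, -0.27 for PDIA3 and -0.15 for PDIA6. For CANX it was -0.69, and for translocation and export it was -2.16 for SEC24D and -0.37 for SEC61B. The calls of OS9 and SDF2L1 were lost in several alternatives.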

How the results depend on the processing

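The number of the 33 genes called stayed within 1.5 times the reported count under each alternative, apart from 1 call for FAC against control without FAC replicate 3, where none was reported. Leaving out each library in turn gave, for these genes, 30 to 32 calls for BafA1 against control, 10 to 15 for FAC+BafA1 against FAC, 31 to 32 for FAC+BafA1 against BafA1, 0 to 1 for FAC against control, 12 to 16 for FAC+BafA1 against control and 29 to 31 for the interaction, with 28 to 29 changing less with FAC. For all genes the ranges were 8643 to 9199, 1840 to 2646, 8683 to 9376, 1239 to 1329, 3683 to 4550 and 6371 to 6615 in the same order of comparisons. Over all genes, calls for FAC against control numbered 1308 as reported, 4486 with no minimum mean FPKM and 402 with a mean of at least 5 FPKM, and calls for FAC+BafA1 against control numbered 4498 as reported and 7643 with no minimum; the cause was not tested. Under quantile normalization CALR turned to 0.16 for BafA1 against control, to -0.13 for FAC+BafA1 against BafA1 and to -0.19 for the interaction; the cause was not tested.

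Replicate numbers recur in each group. Deviations of same-numbered samples from their group means correlated at -0.074 to 0.138 over 18 pairs, 1 of them over 0.1, and the best match had the same number in 14 of 36 library and group combinations, so the numbers were not taken to pair the samples. With the replicate block, 31 of the 33 genes were called for BafA1 against control, 15 for FAC+BafA1 against FAC, 31 for FAC+BafA1 against BafA1, 0 for FAC against control, 16 for FAC+BafA1 against control and 30 for the interaction. Depth is estimated only, so no counting interval is given for low genes such as ERN1 and DERL3.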
